A study of Homo sapiens with 6 samples.

Results

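The 10 genes described here encode chains of the integrins of lymphocytes (ITGB1, ITGB2, ITGB7, ITGA4, ITGAL, ITGAE and ITGAX) and the intercellular adhesion molecules ICAM1, ICAM2 and ICAM3. They were chosen by family and with earlier results of these arrays known, in which ITGB1 was higher and ITGB2 lower with pimasertib. Differences between the treatments are therefore given as a description, without a test. Every probe that the platform annotation gives to these genes was taken, which came to 15 of the 47231 probes and 10 of the 20046 genes named on the array. Of these, 12 were above background, defined as a log2 intensity over 6.70 in at least 3 of the 6 arrays, as were 19896 probes in all.

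An integrin is a heterodimer of 1 alpha and 1 beta chain in the plasma membrane that binds ligands on other cells or in the matrix. ITGB1 and ITGA4 encode the chains of VLA-4, which holds B cells to VCAM1 and fibronectin, and ITGB7 pairs with ITGA4 or with ITGAE. ITGB2 is the common beta chain of the leukocyte integrins and pairs with ITGAL in LFA-1, whose ligands include ICAM1, ICAM2 and ICAM3, and with ITGAX. Binding is switched on from inside the cell, where talin and kindlin attach to the beta tail downstream of the small GTPase RAP1.

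The cells were OCI-LY10, an established human lymphoma line of the activated B cell-like class of diffuse large B-cell lymphoma. They received pimasertib, which blocks MEK1 and MEK2, the kinases that activate ERK, or the solvent DMSO. RNA was taken at 4, 8 and 12 h, with 1 array per treatment and time, 6 arrays in all. The labels give no dose and do not say whether the times came from separate cultures, so spread between the arrays may be partly technical. As a model the series is limited to 1 cell line. Values are the authors' log2 intensities, and n is 3 arrays per treatment, 1 at each time.

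One array stood apart, that of DMSO at 8 h: its correlation with the other arrays averaged 0.914 over 11100 genes, against 0.944 to 0.969 for the rest. In it 1076 of the 19896 probes were at least 2-fold below DMSO at 4 h, against 0 in the pimasertib arrays of those times. At 12 h the number that far below 4 h was 438 in DMSO and 139 with pimasertib. The DMSO array of 12 h had the next lowest correlation, 0.944. Of 5 B cell markers with a named probe, MS4A1 (CD20), CD79A, CD79B and CD22 were above background in all arrays and PAX5 in none. CD3D, CD3E and CD3G of T cells were above background in at most 1 array each. Of the other markers of non-B cells, CD2, a receptor for CD58 on T cells, and CD14, a myeloid receptor, were above background in all 6 arrays. CD28, CD163 and the matrix gene DCN were above it in at least 3. By limma, the treatment gave 0 probes (0%) at an adjusted p of 0.05, while the unadjusted p of 1366 was under 0.05. In the DMSO array of 8 h alone, CD3D (6.71), the myeloid marker LYZ (7.32) and the fibroblast marker COL1A2 (6.99) were above background. Of the other myeloid markers in that array, CD14 (7.11) and S100A9 (6.75) were above it. S100A8 (6.39), CSF1R (6.69) and CD163 (6.55) were not. The part of other cell types in the results was not tested.

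Both measurable probes of ITGB1 were higher with pimasertib at every time. Its brighter probe had log2 intensities of 9.56, 8.14 and 8.09 in DMSO at 4, 8 and 12 h and of 9.66, 9.61 and 9.80 with pimasertib. The pimasertib arrays thus lay within 0.18 of each other and all above the DMSO arrays, and the gap at 8 and 12 h came with DMSO levels 1.43 and 1.47 below that of 4 h. The differences were 0.09, 1.48 and 1.70 at 4, 8 and 12 h, with a mean of 1.09 ± 0.87 (SD over 3 times), or 2.13-fold. At 12 h alone the probe was 3.26-fold higher.

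The dimmer ITGB1 probe read 7.57, 6.99 and 8.11 in DMSO and 8.01, 7.92 and 8.38 with pimasertib. Here the groups overlapped, since the DMSO array of 12 h was above the pimasertib arrays of 4 and 8 h. Its differences were 0.44, 0.93 and 0.26, with a mean of 0.55 ± 0.35 (SD), and without the DMSO array of 8 h the mean was 0.26. The probes thus gave the same direction but unlike time courses: at 12 h the brighter probe's difference exceeded the dimmer one's by 1.44. In DMSO the level at 12 h relative to 4 h was -1.47 by the brighter and 0.54 by the dimmer probe. The annotation places them on different reference transcripts of ITGB1. The other 2 ITGB1 probes did not exceed background in any array, with values between 6.39 and 6.53, and give no check. They include a probe annotated to the same transcript as the dimmer probe, with a mean of 6.45. Whether the unlike time courses come from different transcripts was not tested.

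ITGB2 was lower with pimasertib at 12 h by both of its probes. The brighter probe read 9.39, 9.93 and 9.73 in DMSO and 9.33, 9.07 and 8.84 with pimasertib, with the groups apart. The differences of -0.05, -0.87 and -0.88 averaged -0.60 ± 0.47 (SD), or 1.52-fold lower. The dimmer probe read 9.54, 9.14 and 9.58 in DMSO and 9.39, 9.22 and 8.76 with pimasertib, so that the DMSO array of 8 h lay inside the pimasertib range. Its differences were -0.14, 0.08 and -0.82, with a mean of -0.29 ± 0.47 (SD) that was -0.03 without the 12 h pair. Both probes are annotated to the same transcript, and they differed by 0.95 in the 8 h difference but by 0.06 at 12 h. Within the pimasertib arrays alone, the level at 12 h relative to 4 h was -0.49 and -0.63 by these probes, whereas in DMSO it was 0.34 and 0.05.

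Set against each other, the treatment difference of ITGB1 exceeded that of ITGB2 at every time in each of the 4 pairings of their probes. The gap between the differences ran from 0.15 to 0.59 at 4 h, from 0.85 to 2.34 at 8 h and from 1.09 to 2.59 at 12 h. It was smallest for the brighter probes at 4 h and largest for the same probes at 12 h. Means over the times lay between 0.84 ± 0.25 and 1.69 ± 1.34 (SD over 3 times).

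**Figure D1:**
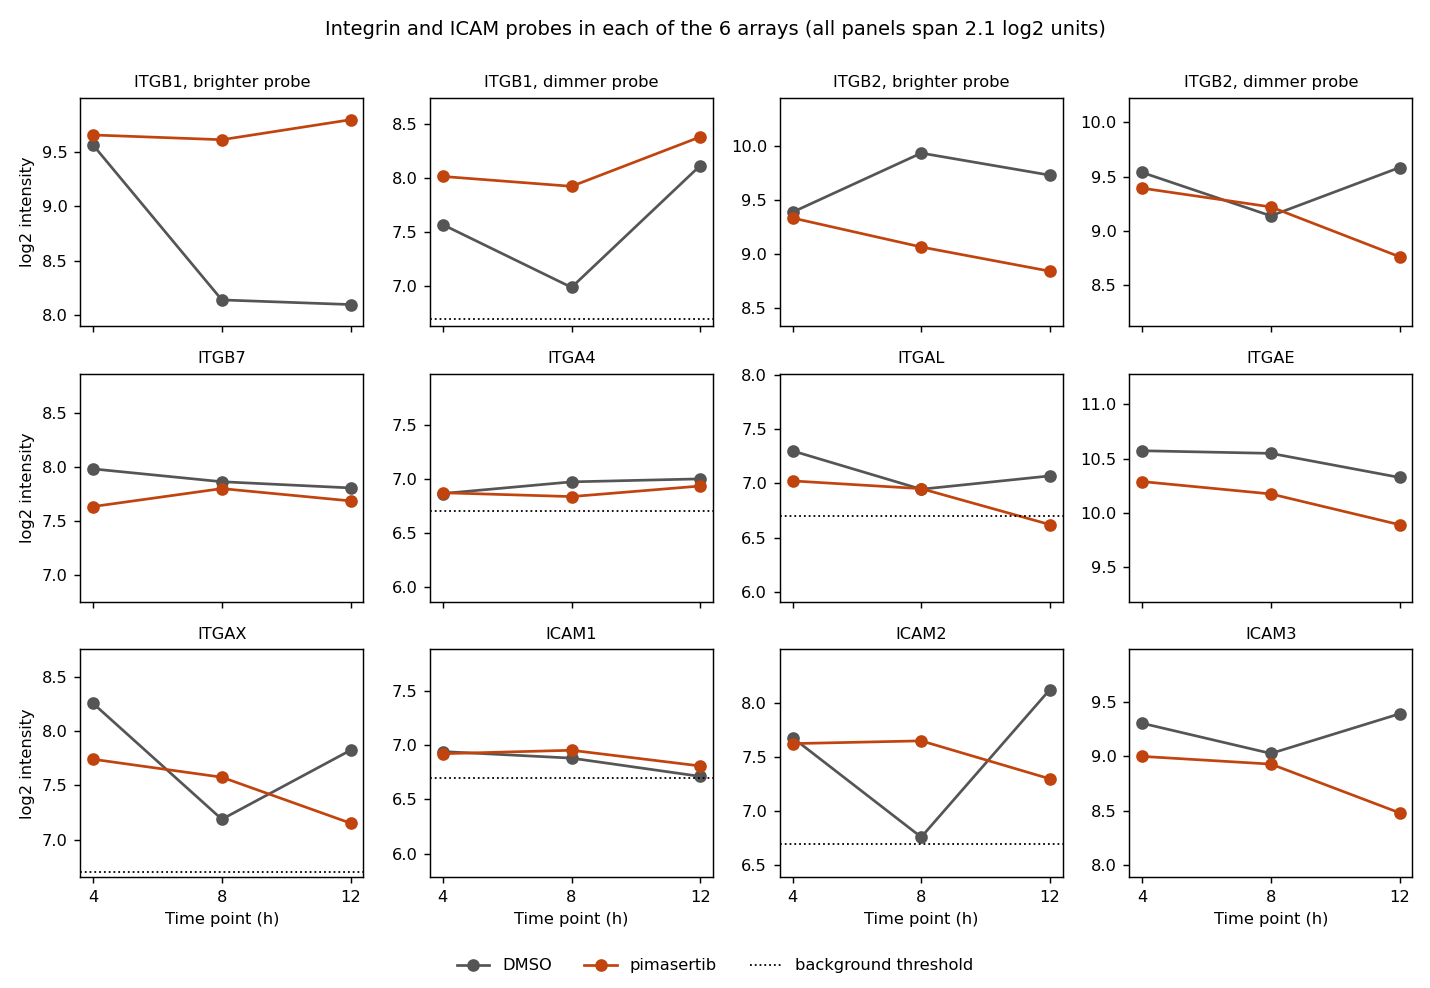
Log2 intensity (vertical axis) of the 12 measurable probes against the time point in hours (horizontal axis), with 1 point per array, DMSO in grey and pimasertib in orange; the dotted line is the background threshold of 6.70 where it falls in the panel. The brighter ITGB1 probe stays between 9.61 and 9.80 with pimasertib and reaches 8.09 in DMSO, while both ITGB2 probes are lower with pimasertib at 12 h.

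ITGB7, the third beta chain, differed little between the treatments, and after cyclic loess normalization it was 0.05 higher with pimasertib at 8 h. It read 7.98, 7.86 and 7.81 in DMSO and 7.63, 7.80 and 7.69 with pimasertib, so the groups did not overlap. Its differences of -0.35, -0.06 and -0.12 averaged -0.18 ± 0.15 (SD). Unlike ITGB2, ITGB7 was furthest from DMSO at 4 h.

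The alpha chain ITGA4, partner of both ITGB1 and ITGB7, did not follow ITGB1. It lay close to background, at 6.86, 6.97 and 7.0 in DMSO and 6.87, 6.84 and 6.93 with pimasertib. Its mean difference was -0.06 ± 0.07 (SD), with the groups overlapping.

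ITGAL, the alpha chain of LFA-1, was likewise dim. It read 7.30, 6.95 and 7.07 in DMSO and 7.02, 6.95 and 6.62 with pimasertib, the last being below the background threshold. The differences were -0.28, 0.005 and -0.45. ITGAX, the alpha chain also known as CD11c, read 8.25, 7.19 and 7.82 in DMSO and 7.74, 7.57 and 7.15 with pimasertib. At 12 h ITGAX was 1.59-fold lower (-0.67), and at 4 h it was also lower (-0.51), but at 8 h it was higher (0.39). Its mean difference was -0.27 ± 0.57 (SD), and it was -0.55 without the DMSO array of 8 h, where the probe was lowest among the DMSO arrays. The other ITGAX probe was never above background. Thus both alpha partners had the sign of ITGB2 at 4 and 12 h, and 27.3% of all probes were lower at both of these times. At 8 h, the time of the array that stood apart, the ITGB2 probes themselves differed in sign, and ITGAL was close to 0 on the authors' scale and at -0.09 after cyclic loess normalization.

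ITGAE, the alpha chain CD103 that pairs with ITGB7 and binds E-cadherin, was lower with pimasertib by a similar amount at each time. It read 10.57, 10.55 and 10.33 in DMSO and 10.29, 10.17 and 9.89 with pimasertib, so all pimasertib arrays were below all DMSO arrays, though not after cyclic loess normalization. The differences of -0.28, -0.37 and -0.44 averaged -0.36 ± 0.08 (SD), or 1.29-fold lower. This SD is small beside the mean, whereas for the brighter probes of ITGB1 and ITGB2 it approached the mean.

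Among the ligands of LFA-1, ICAM3, an adhesion molecule of resting leukocytes, was lower with pimasertib at each time on the authors' scale, though 0.03 higher at 8 h after cyclic loess normalization. It read 9.30, 9.03 and 9.39 in DMSO and 9.0, 8.93 and 8.48 with pimasertib, with no overlap. Its differences of -0.31, -0.10 and -0.91 averaged -0.44 ± 0.42 (SD), and at 12 h it was 1.88-fold lower. ICAM2 went both ways. It read 7.68, 6.76 and 8.12 in DMSO and 7.62, 7.65 and 7.30 with pimasertib, giving -0.06, 0.89 and -0.82. The DMSO array of 8 h was the lowest of all 6 for ICAM2, and without that array the mean difference of 0.003 ± 0.86 (SD) became -0.38. ICAM1, the cytokine-inducible ligand, stayed near background at 6.71 to 6.95 in all arrays, with a mean difference of 0.05 ± 0.06 (SD).

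**Figure D2:**
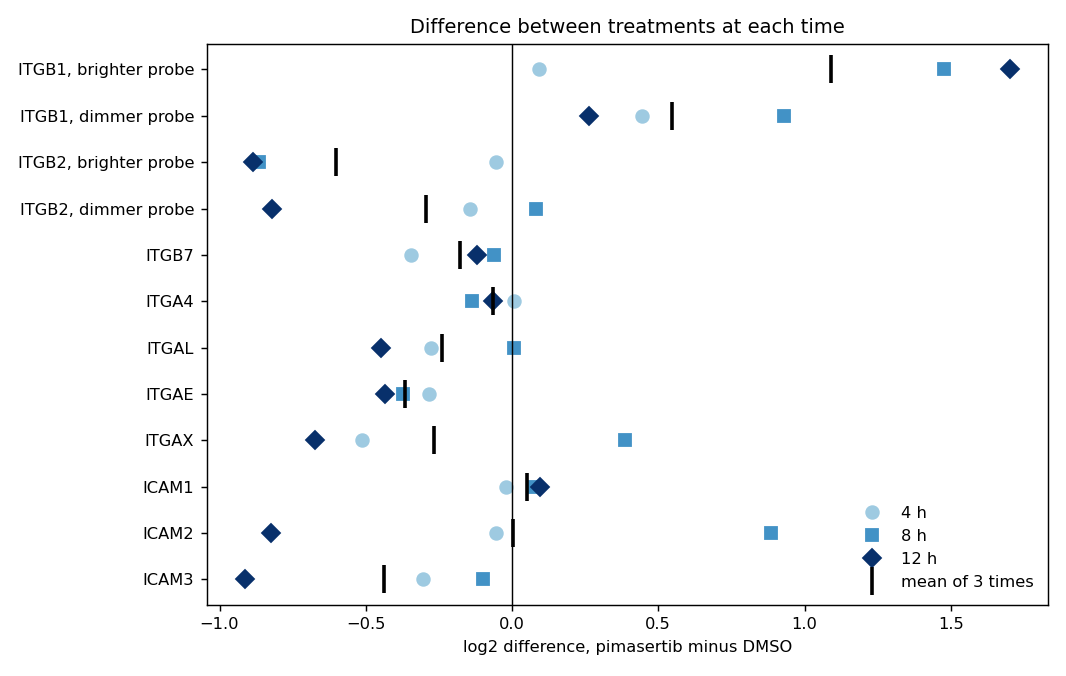
Log2 difference of pimasertib minus DMSO (horizontal axis) for each of the 12 measurable probes (vertical axis), with 1 symbol per time and a bar at the mean of the 3 times. Both ITGB1 probes are right of 0 at all times, ITGAE has its 3 differences between -0.44 and -0.28, and ICAM2 runs from -0.82 to 0.89.

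Counted over the family, 4 of the 12 probes (ITGB2 brighter, ITGB7, ITGAE and ICAM3) were lower with pimasertib at all 3 times, against 14.7% of all 19896 probes. The ITGB1 probes were the 2 that were higher at all times, against 17.4%. In those 4 lower probes all pimasertib arrays also lay below all DMSO arrays, which held for 7.50% of all probes, and the brighter ITGB1 probe was the 1 with all of them above, against 8.11%. The margins of the 4 were narrow. The highest pimasertib and lowest DMSO arrays read 7.80 and 7.81 for ITGB7 and 9.0 and 9.03 for ICAM3. They read 10.29 and 10.33 for ITGAE and 9.33 and 9.39 for the brighter ITGB2 probe. Since these differences chose the members, nothing is read from the counts. Without the 8 h pair, 8 of the 12 were lower at the remaining times, against 27.3% of all probes. Leaving out the DMSO array of 8 h alone, the same 8 had every pimasertib array below the DMSO arrays, against 14.1%. The 4 added were the dimmer ITGB2 probe, ITGAL, ITGAX and ICAM2. Cyclic loess normalization was applied on top of the authors' scaling. After it 4 probes were again lower at all times, but ITGA4 and ITGAL took the place of ITGB7 and ICAM3. ITGB7 and ICAM3 were higher at 8 h by 0.05 and 0.03. The brighter ITGB2 probe and ITGAL were then the 2 with all pimasertib arrays below DMSO, and ITGAE overlapped.

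Counts of larger differences were taken at each time, and both the family and the whole array had more of them at 8 and 12 h than at 4 h. At 4 h 0 probes of the family were at least 1.5-fold lower, against 0.92% of all probes, and 0 at least 1.5-fold higher, against 0.945%. At 8 h 1 was lower (ITGB2), against 9.84%, and 3 were higher (both ITGB1 probes and ICAM2), against 13.6%. At 12 h 5 were lower, against 7.76%, namely both ITGB2 probes, ITGAX, ICAM2 and ICAM3. The brighter ITGB1 probe was then the 1 that was higher, against 8.36%. The median difference of the 12 probes was -0.10, 0.04 and -0.44 at 4, 8 and 12 h, and that of all probes 0.01, 0.04 and -0.01. Since the members were chosen with these differences known, nothing is read from these counts and medians either.

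Promoter sequences are shown for members that differed in direction, and RefSeq (GRCh38.p14) gave one for 6 of the 10 genes. Shown are the 250 bases before the annotated start for ITGB1, the chain that was higher, for ITGAE and ICAM3, which were lower at all times on the authors' scale, and for the near-background ICAM1. They lie on the minus strand at chr10:32958231-32958480 for ITGB1, chr17:3801189-3801438 for ITGAE and chr19:10339625-10339874 for ICAM3, and on the plus strand at chr19:10270870-10271119 for ICAM1. Capitals mark matches on either strand to a GC box (GGGCGG), an AP-1 site (TGACTCA), an ETS core (CCGGAAG), a kB-type site (GGAAATTCC) or a TATA box (TATAAA). AP-1 and ETS factors are nuclear targets of ERK signalling, and kB sites are bound by NF-kB.
ITGB1: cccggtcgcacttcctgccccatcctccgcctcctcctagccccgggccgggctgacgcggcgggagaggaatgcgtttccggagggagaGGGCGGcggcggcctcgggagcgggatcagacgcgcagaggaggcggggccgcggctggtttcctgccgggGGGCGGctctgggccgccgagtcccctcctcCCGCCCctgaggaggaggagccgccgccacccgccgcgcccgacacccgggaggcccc
ITGAE: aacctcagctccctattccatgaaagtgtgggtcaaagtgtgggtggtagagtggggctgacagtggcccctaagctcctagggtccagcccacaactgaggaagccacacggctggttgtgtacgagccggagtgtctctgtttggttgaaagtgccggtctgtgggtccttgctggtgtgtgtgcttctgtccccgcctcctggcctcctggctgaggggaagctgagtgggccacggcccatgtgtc
ICAM3: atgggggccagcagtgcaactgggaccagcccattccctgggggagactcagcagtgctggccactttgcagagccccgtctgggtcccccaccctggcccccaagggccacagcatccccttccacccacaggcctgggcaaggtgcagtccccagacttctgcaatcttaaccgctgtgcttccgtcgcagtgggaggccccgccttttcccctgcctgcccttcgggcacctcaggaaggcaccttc
ICAM1: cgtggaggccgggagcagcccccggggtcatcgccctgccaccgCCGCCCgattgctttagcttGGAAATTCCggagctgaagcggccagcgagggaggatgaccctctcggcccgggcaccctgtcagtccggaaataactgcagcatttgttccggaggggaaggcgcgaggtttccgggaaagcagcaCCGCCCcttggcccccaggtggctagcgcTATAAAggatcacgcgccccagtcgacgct

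The ITGB1 window held 3 GC boxes and none of the other motifs, at a GC content of 78.4% against a median of 57.6% over the promoters of 27305 genes. The ICAM1 window held 2 GC boxes, 1 kB-type site and 1 TATA box. The ITGAE and ICAM3 windows held none of the 5 motifs, at 60.0% and 66.0% GC. Neither did those of ITGB7 and ITGA4, not shown, at 49.6% and 72.8%. The ITGA4 window, at chr2:181457136-181457385, runs into the annotated gene, which starts at 181457205. Of all promoters of this length, 42.2% held a GC box, 4.15% the AP-1 site, 8.78% the ETS core, 0.439% the kB-type site and 11.2% the TATA box. The motifs do not overlap one another in the windows shown. Such matches are a description of letters, and no binding was measured.

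Change with time over both treatments was not used in choosing the genes and could be tested. The slope with hours was fitted in limma to all 19896 probes with the treatment as a factor, over the 6 arrays. None of the 12 probes passed an adjusted p of 0.05, nor did any of all probes (0%), of which 664 had an unadjusted p under 0.05. ITGAE had the smallest p of the family, with -0.04 ± 0.02 log2 per hour (SE, 6 arrays, unadjusted p = 0.0875, adjusted p = 0.9995 in limma). ITGAL was at -0.04 ± 0.02 per hour and ITGAX at -0.06 ± 0.04. The brighter and dimmer ITGB1 probes were at -0.08 ± 0.05 and 0.06 ± 0.04, with opposite signs. A slope common to both treatments averages unlike courses and need not describe either of them. From 4 to 12 h the brighter ITGB1 probe changed by -1.47 in DMSO and 0.14 with pimasertib. The brighter ITGB2 probe changed by 0.34 and -0.49. Of the 12 slopes 9 were negative, and of all probes 52.0% were. The DMSO array of 8 h has no weight in these slopes and enters their errors alone.

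**Figure D3:**
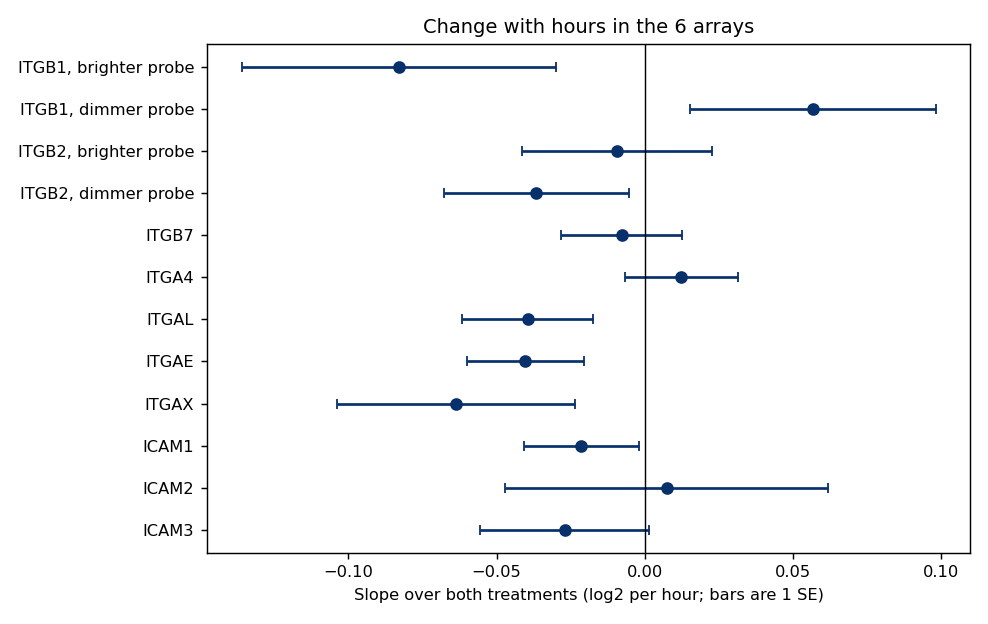
Slope with hours in log2 units per hour (horizontal axis) from limma for each of the 12 measurable probes (vertical axis), over DMSO and pimasertib together; bars are 1 SE. All slopes lie between -0.08 and 0.06, and none passed the test.

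By likeness of pattern over the 6 arrays, 3 genes were named for each of ITGB1 and ITGB2, taking the smallest root-mean-square distance between log2 profiles centred on their own means. Nearest to ITGB1 among 11099 genes were DIP2B, RC3H2, a ubiquitin ligase that binds RNA, and YY1, a transcription factor of most cells, at distances of 0.10, 0.10 and 0.13. ITGB1 itself deviated from its mean by 0.73 on this measure. The genes share the low DMSO arrays of 8 and 12 h: YY1 read 11.33, 10.15 and 9.83 in DMSO and 11.38, 11.43 and 11.85 with pimasertib. In all, 57 probes were at least 2-fold below DMSO of 4 h in both later DMSO arrays, and in 46 of them the pimasertib arrays spanned less than 0.5, a choice of limits made after the ITGB1 values were seen.

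Nearest to ITGB2 were PIGS, of the enzyme complex that attaches GPI anchors, WDR46, a nucleolar protein, and POLR1E, a subunit of RNA polymerase I. Their distances were 0.0747, 0.0750 and 0.0789, and ITGB2 deviated from its own mean by 0.37. POLR1E read 10.01, 10.36 and 10.23 in DMSO and 9.98, 9.66 and 9.33 with pimasertib. Of the family itself, ITGAE at 0.23 and ICAM3 at 0.27 were nearest to ITGB2, ranking 781 and 1362 among the genes. ITGB1 and ITGB2 were 1.07 apart.

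**Figure D4:**
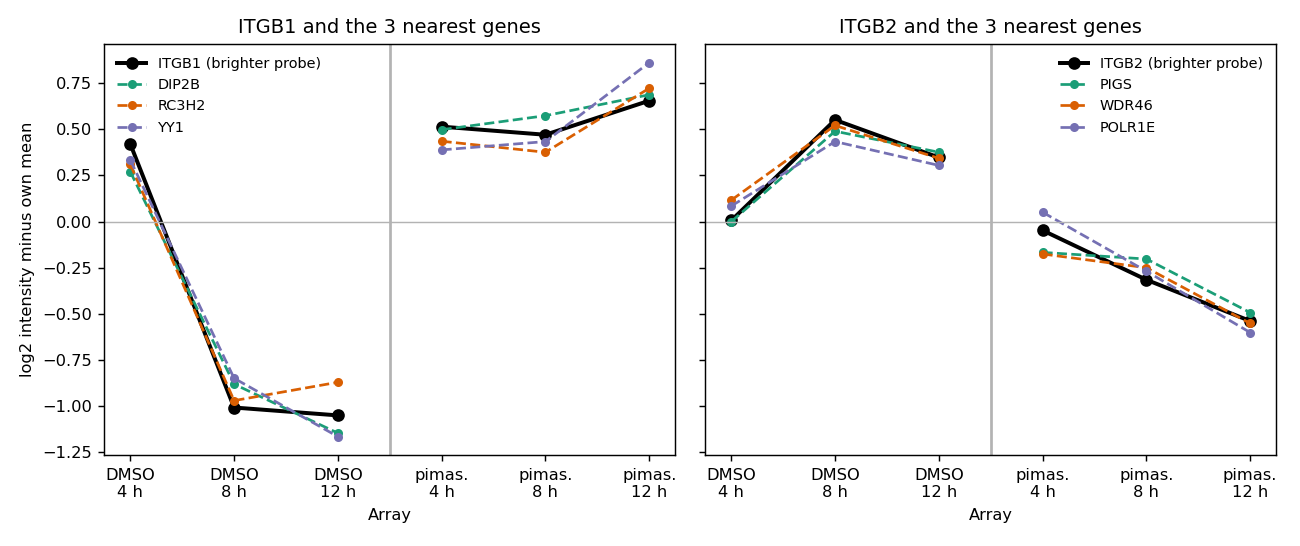
Log2 intensity minus each gene's own mean (vertical axis) in the 6 arrays (horizontal axis; pimas. is pimasertib) for ITGB1 and ITGB2 in black and for their 3 nearest genes in colour. The ITGB1 set is low in the DMSO arrays of 8 and 12 h and above its mean in the other arrays, and the ITGB2 set is lowest in the pimasertib array of 12 h.

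Other genes of integrin adhesion were taken from 6 lists with 97 genes, of which 66 were measurable, each by its kept probe of highest mean. By limma, 0 of the 66 reached an adjusted p of 0.05 for the treatment. The unadjusted p of 7 was under 0.05, as was that of 1366 of all 19896 probes. At all 3 times 10 were higher, against 17.4% of all 11100 genes, and 14 lower, against 15.7%. Of the 10, 2 had passed the filter through the pimasertib arrays alone. The slope with hours gave 0 by limma. Its unadjusted p was under 0.05 for 2, the tetraspanin CD37 and VCAM1, against 3.34% of all probes. At 12 h VCAM1 was below the background threshold in both treatments.

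Of 10 measurable other integrin chains, ITGAV, ITGA7, ITGA1 and ITGA9 were the 4 that were higher at all times, and 0 were lower. Over all genes the shares were 17.4% and 15.7%. ITGA1 and ITGA9 were above background in 0 DMSO arrays and passed the filter through the 3 pimasertib arrays alone, and ITGAV and ITGA7 were above it in 2 DMSO arrays, so nothing is read from this count. ITGAV, an alpha chain that pairs with ITGB1 and other beta chains, was at 0.17, 0.51 and 0.72, from a DMSO mean of 6.83 to 7.29 with pimasertib. ITGA7 and ITGA1, alpha chains of laminin and collagen receptors that pair with ITGB1, were at 0.42 ± 0.19 and 0.31 ± 0.12 (SD). Their DMSO means of 6.64 and 6.62 lay below the background threshold, so the sizes of their differences are not read. The adjusted p was 0.691 in limma for ITGAV and ITGA7. None is given for ITGA1, which passed the filter through the pimasertib arrays alone. ITGA2 and ITGA3, named for their slopes, were at -0.06 and -0.03 per hour. In DMSO at 12 h they read 6.51 and 6.50, below the background threshold, so the sizes of these slopes are not read.

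Of 21 measurable genes of integrin activation and its brakes, 5 were lower at every time and 1 higher. Over all genes the shares were 15.7% and 17.4%. The median difference was -0.11, against 0.02 over all genes. FERMT3, the kindlin of blood cells, was at -0.43, -0.34 and -0.47, a mean of -0.41 ± 0.07 (SD), and its other probe at -0.28. TLN1, which encodes talin, was at -0.42, -0.30 and -0.28, a mean of -0.33 ± 0.08 (SD). RAP1GAP2, an inactivator of RAP1, was at 0.04, 0.16 and 0.75, a mean of 0.32 ± 0.38 (SD). In DMSO RAP1GAP2 lay near background, at 6.88, 6.82 and 6.70. The GTPase RAP1B was at -0.16 ± 0.40 (SD). For FERMT3 and TLN1 the adjusted p was 0.691 in limma. The DMSO and pimasertib means were 8.78 and 8.37 for FERMT3 and 8.77 and 8.44 for TLN1.

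Among 16 measurable genes of signalling and adaptors downstream of integrins, 3 were higher at every time and 4 lower. Over all genes the shares were 17.4% and 15.7%. The median difference was 0.005, against 0.02 over all genes. ZYX, the focal adhesion protein zyxin, was at -0.14, -0.70 and -1.14, but its other probe was at -0.40, 0.20 and -0.29. ILK, the integrin-linked adaptor, was at 0.36 ± 0.26 (SD) and VCL, vinculin, at 0.35 ± 0.44, and the other probe of each was at 0.03. LIMS1, a partner of ILK, was at -0.14 ± 0.06 (SD).

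Of the 8 measurable genes among tetraspanins and CD47, membrane partners of integrins, 4 were lower at every time and 1 higher. Over all genes the shares were 15.7% and 17.4%. The median difference was -0.19, against 0.02 over all genes. CD37, a tetraspanin of mature B cells, was at -0.34, -0.74 and -1.19, from 10.43 to 9.68 in the means, and had the smallest unadjusted p of the genes named from the lists (0.00893, adjusted p = 0.691 in limma). Its other probe was at -0.01, 0.16 and -0.80. CD82 was at -0.62 ± 0.59 (SD), with its other probe at 0.10. CD47 was at 0.62, 0.44 and 0.42, a mean of 0.49 ± 0.11 (SD), with a dim other probe at 0.01. Of 4 measurable other ligands, 0 were higher or lower at all times, against 17.4% and 15.7% of all genes. VCAM1, the ligand of VLA-4, was at -0.08 ± 0.02 per hour (SE, unadjusted p = 0.0179, adjusted p = 0.9995 in limma), with JAM2 at -0.01. VCAM1 was above background in 2 DMSO and 2 pimasertib arrays. At 12 h it read 6.69 in DMSO and 6.59 with pimasertib, both below the threshold, so the size of its slope is not read. Of 7 measurable other lymphocyte adhesion molecules, CD48 was at -0.39 ± 0.34 (SD) and CEACAM1 at 0.28 ± 0.17, with other probes at 0.24 and -0.01. CD58 and ALCAM were at -0.07 and -0.06 per hour.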

How the data were processed

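Gene expression was measured on Illumina bead arrays in OCI-LY10 cells, with treatment and hours read from the labels. For 47231 probes the authors deposited log2 intensities, which run from 6.20 to 13.91. The sorted columns differ by at most 9e-04, so the deposited values had been quantile-normalized. Base 2 was inferred from their range, and the software is not given in the sources used here. Left out were 6 columns of another table, whose names match no label. For arrays, their number limits the precision.

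The members, lists, naming rule and tests were chosen with earlier results of these data known. Probes were named by the platform annotation (30113 with 1 gene, 8 with several, 17110 with none), and 30074 were matched to RefSeq with 0 symbols changed. The most frequent value, 6.49, and the spread of values below it, an SD of 0.0700, set the background threshold of 3 SDs above, 6.70, to be passed in 3 of 6 arrays. Named genes from the lists were up to 3 per list with 1 sign at all times and the largest mean difference, and up to 2 of smallest slope p. Tests used limma 3.58.1 (R 4.3.3) across all kept probes, two-sided, with Benjamini-Hochberg adjustment, in models of treatment plus hours (3 residual degrees of freedom) or time point plus treatment (2). The time point is the pairing. On simulated data the slope model was run with planted slopes, and the treatment model without a planted treatment effect. The simulated noise had the same SD in all probes and arrays, so no array stood apart in it. Alternatives changed the filter, normalization (cyclic loess), background (normexp, offset 50), probes per gene, variance prior, threshold, terms of the model and arrays. Cyclic loess and normexp were applied to the deposited values, which were already normalized, so neither replaces the authors' processing. Where several probes were kept, their agreement was checked for the members and the genes named from the lists. It was not checked for the genes named by likeness or for unnamed genes of the lists.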

Additional observations from a re-analysis of the deposited data

How the results depend on the processing

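Over all alternatives run, 0 of the 12 slopes passed an adjusted p of 0.05 in limma (lowest adjusted p = 0.372), and 0 of all probes were called for the slope. For the treatment, 0 of the 66 other adhesion genes were called in any alternative. Over all probes the treatment calls were 0, except 2 with a trended and robust prior and 10 without the 12 h pair. The slope of the brighter ITGB1 probe was 0.01 without the DMSO array of 4 h, and that of the brighter ITGB2 probe 0.02 without the pimasertib array of either 4 or 12 h. The mean difference ran from 0.79 to 1.59 for the brighter and from 0.35 to 0.69 for the dimmer ITGB1 probe when 1 pair was left out. It ran from -0.88 to -0.46 for the brighter and from -0.48 to -0.03 for the dimmer ITGB2 probe. The alternatives for counts were chosen after seeing the data. The count of probes lower at all times was 8 in place of 4 without the 8 h pair. That of probes with pimasertib arrays all below DMSO was 8 without the DMSO array of 8 h and 2 after cyclic loess, with ITGAL as 1 of these. At 1.3-fold in place of 1.5-fold, 1 probe was lower and 1 higher at 4 h. Cyclic loess changed the sign of 5 of 36 single differences and normexp of 0, and neither changed the sign of a mean difference. ITGA4, ITGAL and ICAM1 lie near background, which limits what can be seen there. A fit without the time block called 0 probes for the treatment.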
